A study of Mus musculus with 9 samples.

Results

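Cholesterol synthesis was examined through 8 listed genes, Hmgcs1, Idi1, Fdps, Fdft1, Sqle, Lss, Cyp51 and Insig1, comparing 6 alveolar rhabdomyosarcomas of the mouse with 3 wild-type skeletal muscles. Every probe set whose only gene symbol in the array's annotation was one of these was taken, which gave 19 of 22690 probe sets and 7 of 12393 named genes. Insig1 had no such probe set and was not analysed here. The 7 measured genes encode enzymes of cholesterol synthesis and none acts in cholesterol uptake, which is described below through other genes. Alveolar rhabdomyosarcoma is a malignant tumour with features of immature skeletal muscle. The labels name the tumours by their disease and the controls as wild-type muscle, and give no genotype, strain, age, treatment or muscle of origin, nor whether samples came from separate animals, so the spread behind each p-value may be partly technical. Each total RNA was hybridised to 1 Affymetrix array, and a signal is a linear MAS5 brightness in arbitrary units.

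Cells make cholesterol from acetyl-CoA by way of mevalonate, isoprenoid diphosphates, squalene and lanosterol. The genes of this route are known targets of SREBP2, a membrane-bound transcription factor that the escort protein SCAP carries to the Golgi for cleavage when sterols are scarce, while INSIG proteins hold SCAP in the endoplasmic reticulum when sterols are plentiful. In skeletal muscle the isoprenoid branch also supplies prenyl groups and ubiquinone. In bulk tissue, fewer cells of a type and less RNA per cell cannot be told apart.

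The upstream sequences of the measured genes are shown because SREBP acts there together with NF-Y, a factor that binds CCAAT. Of the 8 genes 5 had an entry in the RefSeq promoter table, 4 of them measured. The 250 bases before the annotated start are printed from 5′ to 3′ in the direction of the gene. Capitals mark matches on either strand to TCACNCCAC, a sterol regulatory element core, and to CCAAT.
Hmgcs1 (GRCm38.p6, chr13:119690101-119690350, plus strand): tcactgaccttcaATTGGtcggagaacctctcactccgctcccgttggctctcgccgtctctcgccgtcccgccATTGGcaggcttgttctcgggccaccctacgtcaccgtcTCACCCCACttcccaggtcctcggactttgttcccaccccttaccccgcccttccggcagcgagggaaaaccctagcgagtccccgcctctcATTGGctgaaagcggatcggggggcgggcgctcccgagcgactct
Idi1 (GRCm38.p6, chr13:8885356-8885605, plus strand): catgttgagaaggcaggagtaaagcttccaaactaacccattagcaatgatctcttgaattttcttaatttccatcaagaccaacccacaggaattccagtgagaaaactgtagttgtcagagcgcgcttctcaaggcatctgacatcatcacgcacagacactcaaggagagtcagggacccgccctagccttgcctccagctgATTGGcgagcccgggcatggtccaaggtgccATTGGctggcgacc
Lss (GRCm38.p6, chr10:76531355-76531604, plus strand): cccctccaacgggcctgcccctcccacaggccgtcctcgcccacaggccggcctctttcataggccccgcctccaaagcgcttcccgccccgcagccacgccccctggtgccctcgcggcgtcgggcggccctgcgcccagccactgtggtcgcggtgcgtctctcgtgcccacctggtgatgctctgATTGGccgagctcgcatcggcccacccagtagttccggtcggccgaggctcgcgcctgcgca
Cyp51 (GRCm38.p6, chr5:4104698-4104947, minus strand): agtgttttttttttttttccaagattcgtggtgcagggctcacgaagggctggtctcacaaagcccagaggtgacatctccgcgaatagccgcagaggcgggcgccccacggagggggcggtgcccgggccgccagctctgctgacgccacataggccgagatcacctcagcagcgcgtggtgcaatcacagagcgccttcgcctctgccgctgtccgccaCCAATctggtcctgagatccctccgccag
Within these 250 bases the Hmgcs1 sequence held TCACCCCAC once, from 137 to 129 bases before the start, and CCAAT or its complement 3 times. TCACNCCAC was found in 1.05% of 32851 promoter entries of the same length, and CCAAT in 33.8%. Idi1 held CCAAT or its complement 2 times, Lss 1 time and Cyp51 1 time, and none of the 3 windows held TCACNCCAC. The 2 motifs do not overlap each other in these windows, and a match describes letters only.

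The labelled tissues were compared with their markers before the genes were read. All 7 markers of adult muscle fibres were called lower in the tumours, with a summed signal of 1053 to 70039 in tumours and 133926 to 173037 in muscles. Tumour 1 had the highest sum of the tumours. Among 6 markers of the myogenic tumour, Ncam1 ranged from 1333 to 3408 in tumours and from 55 to 139 in muscles, while Myod1 overlapped between the groups, at 282 to 1205 in tumours and 300 to 716 in muscles. Of the 6, Ncam1 and Myh3 were called higher and Des, which encodes desmin, lower, with a Des signal of 91 to 4036 in tumours and 1551 to 4160 in muscles (-2.85 on the log2 scale, limma, adjusted p = 0.032). Adipoq, a hormone made by fat cells, ranged from 10 to 44 in tumours and from 1842 to 3248 in muscles, and the 5 adipocyte markers together summed to 251 to 1858 in tumours and 8468 to 10888 in muscles. Markers of dividing cells summed to 9422 to 34755 in tumours and 459 to 1693 in muscles, and macrophage markers to 8066 to 30680 in tumours and 3039 to 4590 in muscles. Of 5 measured markers of dividing cells 5 were called higher, and 5 of 8 macrophage markers. Of the macrophage differences 7 lay above 0 and 1 below. The latter was Itgam, at 12 to 151 in tumours and 112 to 137 in muscles (-1.01, not called). Csf1r made up 26580 of the macrophage sum of 30680 in tumour 1. In the same tumour Cdc20 made up 28359 of the dividing-cell sum of 34755. Mcm2, another marker of dividing cells, was lowest in tumour 1, at 554, inside the muscle range of 220 to 601. Endothelial markers summed to 653 to 1889 in tumours and 2551 to 3245 in muscles, with 1 of 5 called lower and all 5 differences below 0. Fibroblast markers summed to 6917 to 57907 in tumours and 31433 to 37351 in muscles, with 1 of 6 called lower and all 6 differences below 0. For Gapdh, the signal at the 3′ end over that at the 5′ end, which climbs as RNA degrades, was 1.93 to 9.39 on the tumour arrays and 1.68, 57.17 and 33.0 on muscles 1 to 3. For beta-actin the same ratio was 3.35 to 6.78 on the tumour arrays and 1.87, 4.06 and 4.35 on muscles 1 to 3, so muscles 2 and 3 lay above every tumour by Gapdh and inside the range of the tumours by beta-actin. Muscles 1 and 3 were deposited on another scale and were multiplied by 1.6995 and 3.5493.

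Of the 7 cholesterol synthesis genes, Sqle alone rose in the tumours and 6 did not pass the test. Sqle encodes squalene epoxidase, which adds oxygen to squalene and is a rate-limiting step of the sterol branch. No member was called lower (limma, adjusted p under 0.05 over 12393 genes), and 0 members were lower at an unadjusted p under 0.05, while 3 were higher. Across all genes 8.66% were called higher and 9.09% lower, so 1 of 7 lies near the background. The median difference over the 7 genes was 0.79 on the log2 scale, against 0.10 over all genes, with 5 of the 7 above 0. That median was the value of Lss by its brightest probe set. With the mean of each gene's probe sets Lss differed by 0.19 and Cyp51 by 0.68, and Idi1 turned to -0.27. Fdps and Sqle kept similar values, at 1.03 and 1.75, and Hmgcs1 and Fdft1 stayed below 0. The height of the median therefore depended on the choice of probe set. Signals did not overlap between the groups for 3 of the 7, Sqle, Lss and Cyp51, where 21.6% of all genes did not overlap.

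**Figure D1:**
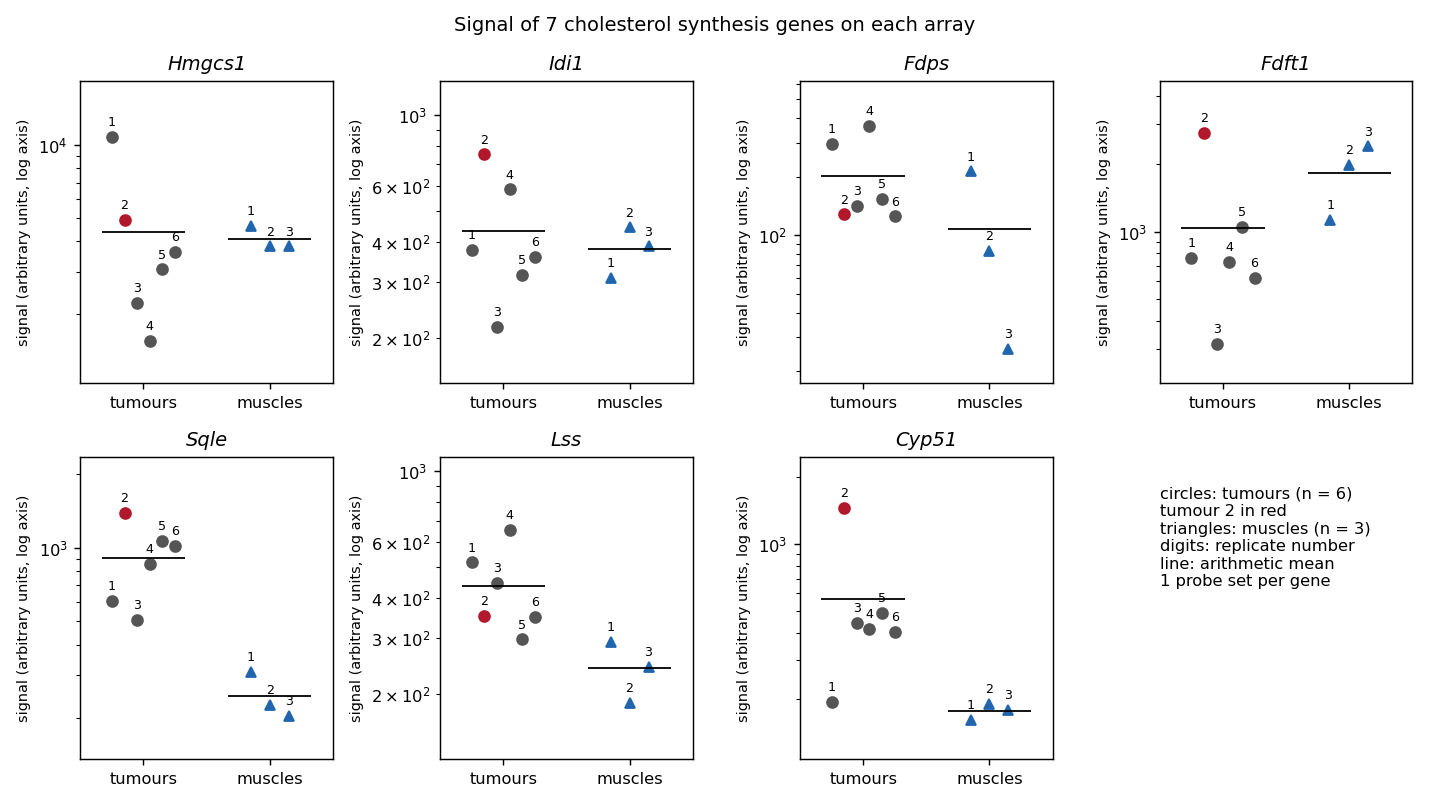
Signal of the 7 measured genes on each array, 1 probe set per gene, on a logarithmic vertical axis in arbitrary units. Circles are the 6 tumours with tumour 2 in red, triangles are the 3 muscles, digits are replicate numbers and lines are arithmetic means. Sqle lies between 506 and 1389 in tumours and between 204 and 310 in muscles, and tumour 2 is highest for Idi1, Fdft1, Sqle and Cyp51.

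The genes of the mevalonate stage gave no call. Hmgcs1 encodes the cytosolic HMG-CoA synthase, which joins acetyl-CoA to acetoacetyl-CoA. Its brightest probe set had a lowest, median and highest signal of 1555, 3334 and 10814 in tumours, and 4627, 3808 and 3812 in muscles 1 to 3. The highest value was that of tumour 1, and the muscles lay inside the range of the tumours. The difference was -0.19 ± 0.50 (log2 ± SE, limma), with a 95% interval from -1.27 to 0.89 and an adjusted p of 0.87. Idi1, the isomerase that turns isopentenyl diphosphate into its reactive isomer, had 216, 369 and 752 in tumours and 308, 444 and 387 in muscles 1 to 3. Its groups overlapped throughout, and the difference was 0.09 ± 0.41, with an interval from -0.79 to 0.97 (limma, adjusted p = 0.92). Fdps, farnesyl diphosphate synthase, stands where the sterol and prenyl branches part. It had 125, 148 and 366 in tumours and 213, 83 and 26 in muscles 1 to 3. Muscle 1 lay above 4 of the 6 tumours, and muscles 2 and 3 lay below all of them. The difference was 1.02 ± 0.56, with an interval from -0.17 to 2.22 (limma, adjusted p = 0.25), and Fdps was the only one of the 7 genes that was dimmer than the median gene.

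The 2 genes that make and oxidise squalene went to opposite sides of 0. Fdft1, squalene synthase, joins 2 farnesyl diphosphates and commits them to sterols. Its brightest probe set, 1438322_x_at, had a lowest, median and highest signal of 317, 749 and 2750 in tumours and 1127, 1972 and 2393 in muscles 1 to 3. By this probe set tumour 2 lay above every muscle and the other 5 tumours below every muscle. The difference over all 9 arrays was -1.06 ± 0.53, with an interval from -2.19 to 0.07 (limma, adjusted p = 0.2). Without tumour 2 it was -1.40 and called lower (adjusted p = 0.029), in a range of 0.029 to 0.8 over its alternatives. Sqle had 506, 938 and 1389 in tumours and 310, 227 and 204 in muscles 1 to 3, with each of the 6 tumours above the 3 muscles. Its signal averaged 907 ± 323 over the 6 tumours and 247 ± 56 over the 3 muscles (mean ± SD). On the scale of log2(signal + 16), which shrinks the folds of dim probe sets, this was a 3.37-fold difference, with a log2 difference of 1.75 ± 0.37, an interval from 0.95 to 2.55 and an adjusted p of 0.0049 (limma). The call held without tumours 1 and 4 and without each array in turn, at adjusted p up to 0.04, but not when tumours 4 to 6 were left out together (0.077). Over the alternatives fitted with limma the adjusted p ran from 0.00076 to 0.077. As groups, tumours were higher than muscles for Sqle and for the summed markers of dividing cells and of macrophages. The summed adipocyte and endothelial markers were lower in tumours. Among the tumours Sqle was lowest in tumours 3 and 1, at 506 and 607, which had the highest macrophage sums, at 22718 and 30680. Tumours 2, 5 and 6 kept 1 order for Sqle and the macrophage sum. The dividing-cell sum was highest in tumour 1, at 34755, and was 9753 in tumour 2, the highest for Sqle. The part of these cells in the difference was not tested.

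The 2 genes of the lanosterol stage did not pass. Lss, lanosterol synthase, closes the sterol rings. Its brightest probe set had 296, 400 and 654 in tumours and 291, 187 and 243 in muscles 1 to 3. The groups did not overlap, but the lowest tumour and the highest muscle were 296 and 291. The difference was 0.79 ± 0.37, with an interval from 0.00 to 1.58 (limma, adjusted p = 0.17). Without the rescaling of 2 muscle arrays Lss was called higher, at 1.57 (adjusted p = 0.039, in a range of 0.039 to 0.79). Cyp51, lanosterol 14-alpha-demethylase, removes the first methyl group on the way to cholesterol. It had 195, 428 and 1455 in tumours and 162, 191 and 180 in muscles 1 to 3. Tumour 1, at 195, lay next to the muscles, and tumour 2 had the highest signal. The difference was 1.33 ± 0.50, with an interval from 0.26 to 2.40 (limma, adjusted p = 0.084). Without tumour 1 it was 1.57 and called higher (adjusted p = 0.018), and without tumour 2 it was 1.01 (0.079), in a range of 0.0099 to 0.28 over its alternatives.

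Read probe set by probe set, 1 of 19 was called higher, that of Sqle, and 0 were called lower (limma, adjusted over 22626 probe sets). Of all probe sets 7.88% were called higher and 7.53% lower. At an unadjusted p under 0.05, 3 of the 19 were higher and 4 lower, and 11 of the 19 were brighter than the median probe set. Signals did not overlap between the groups for 4 of the 19, against 19.8% of all probe sets. The median difference was -0.19 over the 19 and 0.11 over all probe sets. The 4 probe sets of Hmgcs1 all lay below 0, from -1.33 to -0.19, as did the 4 of Fdft1, from -1.27 to -0.83. Both of Fdps lay above 0, at 1.02 and 1.04. The second, 1438150_at, was dim, at 5 to 9 in muscles, 184 in tumour 4 and 7 to 43 in the other tumours. Idi1 had 1 above and 1 below 0, and Lss 2 above and 1 below, from -0.90 to 0.79. The 3 of Cyp51 ran from 0.00 to 1.33. The direction of Lss is therefore uncertain.

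**Figure D2:**
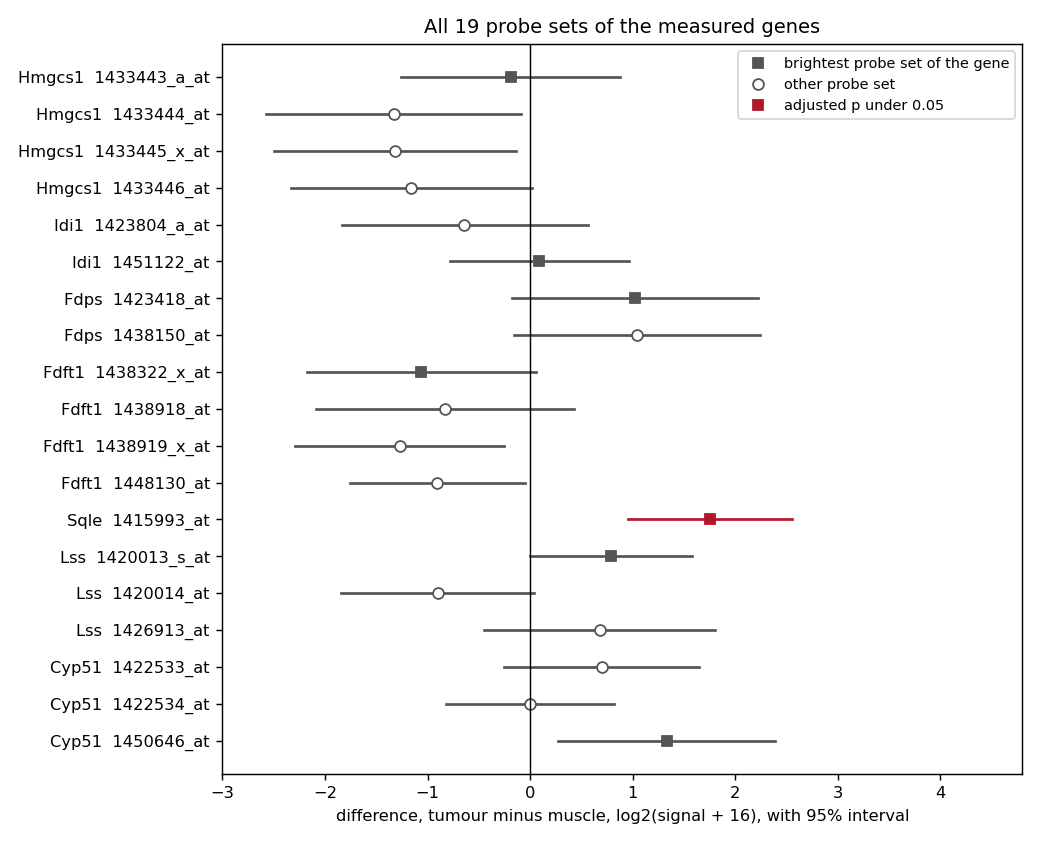
Difference between tumours (n = 6) and muscles (n = 3) for each of the 19 probe sets, as tumour minus muscle on the scale of log2(signal + 16), with 95% intervals from limma. Squares are the brightest probe set of a gene, open circles the others, and red marks an adjusted p under 0.05, reached by Sqle at 1.75.

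The probe sets of Hmgcs1 ordered the tumours differently. By 1433443_a_at, the brightest, tumour 1 had 10814 and tumour 2 had 4915. By 1433444_at tumour 1 had 177, the lowest of the tumours, and tumour 2 had 1545, the highest. The other probe sets dimmer than the brightest, 1433445_x_at and 1433446_at, also placed tumour 2 highest, at 1904 and 478. Over the 6 tumours the 3 dimmer probe sets correlated with each other at 0.81 to 0.95 (Pearson, log2) and with the brightest at -0.15 to 0.14, given as a description. Which part of the transcript each probe set reads was not examined. For Fdft1 the brightest probe set, 1438322_x_at, and 1448130_at placed tumour 2 highest, at 2750 and 1042. By 1438918_at and 1438919_x_at tumour 2 had 24 and 20, the lowest of the tumours. By 1448130_at it lay above muscle 1, at 739, and below muscles 2 and 3, at 1305 and 1312. The suffix x, which the brightest probe set of Fdft1 also carries, marks a probe set with probes that can bind other transcripts.

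Tumour 2 stood out from the other tumours for several of these enzymes. By the brightest probe set of each gene its signal exceeded those of the other 5 tumours for 4 of 7 genes, Idi1, Fdft1, Sqle and Cyp51. It was lowest for 0. Among all 12393 genes tumour 2 was highest for 12.9% and lowest for 39.2%. By probe set it was highest for 9 and lowest for 3 of 19, against 12.6% and 37.8% of all probe sets. The brightest probe set of Cyp51 gave 1455 in tumour 2 and at most 492 in the other tumours. The mean log2(signal + 16) of the 7 genes was 9.99 in tumour 2, 8.77 in tumour 3 and 9.15 to 9.42 in tumours 1, 4, 5 and 6, and 8.66 to 8.94 in the muscles. Without Hmgcs1, whose probe sets ordered the tumours differently, the mean was 9.61 in tumour 2 and 8.38 in tumour 3. It was then 8.71 to 9.21 in tumours 1, 4, 5 and 6, and 8.12 to 8.40 in the muscles. Tumour 3 was lowest of the tumours for 3 of the 7, Idi1, Fdft1 and Sqle. Tumour 2 had the highest summed fibroblast markers, at 57907. Tumour 3, the lowest of the tumours by the mean of the members, had the next highest, at 39700. The sums of tumours 1, 4, 5 and 6 were 6917 to 16621, and the part of such cells was not tested. Fdps and Lss did not follow this order and were highest in tumour 4, at 366 and 654.

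The spread among tumours was wider than among muscles for 6 of the 7 genes. The SD of log2 values was 0.97 in tumours and 0.16 in muscles for Hmgcs1, 1.00 and 0.56 for Fdft1, and 0.90 and 0.11 for Cyp51. Fdps was the exception, at 0.62 in tumours and 1.22 in muscles. The median over the 7 genes was 0.62 in tumours and 0.29 in muscles, against 0.70 in tumours and 0.36 in muscles over all genes. Hmgcs1, Fdft1 and Cyp51 varied more among tumours than the median gene and the other 4 less.

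Other genes of the route were mostly not called. Of 33 listed genes of synthesis, regulation and uptake 26 were measured. Of the 26, 1 was called higher, 2 lower and 23 were not called, with a median difference of 0.34. Of all genes 8.66% were called higher and 9.09% lower, so these counts are not above the background. Of 4 measured genes of the mevalonate stage (Mvk, Pmvk, Mvd and Ggps1) and 8 of the late sterol stage, 0 were called in either direction (limma); 1 of the 12, Ebp, was higher at an unadjusted p under 0.05 and 0 were lower. Dhcr7, which reduces dehydrocholesterol to cholesterol, and Sc5d, a sterol desaturase, were picked after seeing that tumour 2 was highest for them. Dhcr7 had 915 in tumour 2, from 233 to 385 elsewhere among the tumours, and 279, 303 and 265 in muscles 1 to 3. Sc5d had 561 in tumour 2, from 129 to 440 elsewhere among the tumours, and 280, 291 and 127 in muscles 1 to 3. These were the only 2 of the 26 genes, or 7.69%, that were highest in tumour 2. Tumour 2 was lowest of the tumours for 9 of the 26, or 34.6%, among them Tm7sf2, Nsdhl and Hsd17b7 of the late sterol stage.

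**Figure D3:**
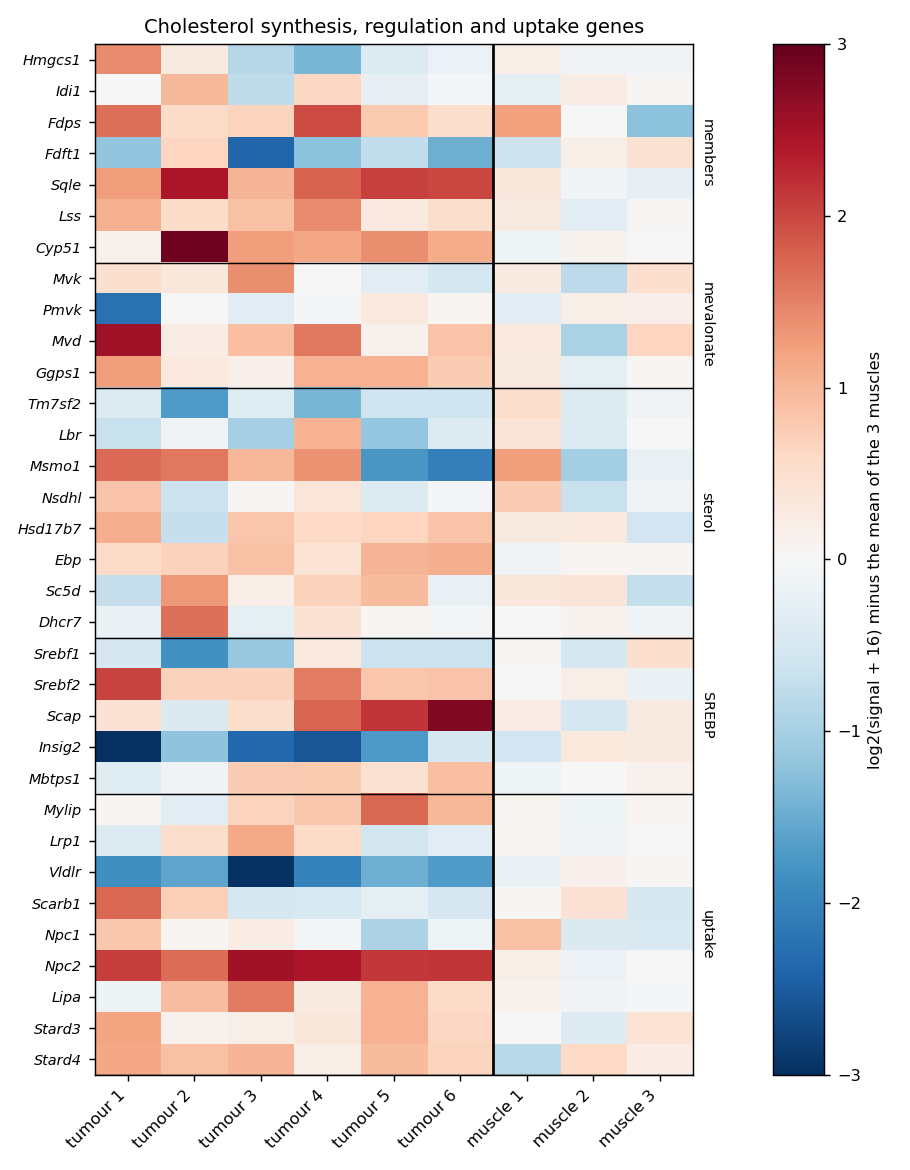
Log2(signal + 16) of the 7 measured members and 26 other genes of synthesis, regulation and uptake on each array, minus the mean of the 3 muscles, with tumours left of muscles. Red is higher and blue lower than the muscle mean, and colours stop at 3 and -3. Sqle and Npc2 are above the muscle mean in all 6 tumours and Vldlr and Insig2 below it.

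Among the regulators Insig2 fell and the others did not pass. Insig2, which retains SCAP in the endoplasmic reticulum, had a lowest, median and highest signal of 303, 697 and 2011 in tumours and 1894, 3539 and 3436 in muscles 1 to 3. Only tumour 6 reached into the muscle range. The difference was -1.92 ± 0.51 (log2 ± SE), with an adjusted p of 0.018 (limma), and the call was lost without muscle 2 (0.093), without muscle 3 (0.098) and without the rescaling of 2 muscle arrays (0.18), in a range of 0.0039 to 0.18. Srebf2, which encodes SREBP2, had 501, 563 and 1285 in tumours and 306, 353 and 262 in muscles 1 to 3. All 6 tumours lay above the muscles, and the difference was 1.11 ± 0.37 (limma, adjusted p = 0.056). It was called higher under 6 of 21 alternatives, among them the mean of its probe sets (1.48, adjusted p = 0.0091), in a range of 0.0091 to 0.22. Srebf2 was lowest in tumours 2 and 3, at 501 and 505, the tumours with the highest and the lowest mean of the members. Srebf1, the partner factor linked to fatty acid synthesis, differed by -0.74 ± 0.43 (adjusted p = 0.28), and Scap by 1.20 ± 0.60 (adjusted p = 0.21, and 0.014 without the rescaling, in a range of 0.014 to 0.91). Scap ranged from 196 to 1943 in tumours and from 184 to 329 in muscles.

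Among 9 measured genes of uptake and intracellular transport 1 rose, 1 fell and 7 did not pass. Of all genes 8.66% were called higher and 9.09% lower. Npc2, which binds free cholesterol in lysosomes, averaged 13209 ± 2672 over the 6 tumours and 2890 ± 367 over the 3 muscles (mean ± SD). The lowest tumour, at 9191, lay above the highest muscle, at 3273. The fold was 4.49 with an adjusted p of 0.00091 (limma). Summed macrophage markers, which belong to cells known to express Npc2, were also higher in tumours, and the part of these cells was not tested. Vldlr, a receptor for triglyceride-rich lipoproteins, averaged 1226 ± 372 over the 6 tumours and 4511 ± 558 over the 3 muscles (mean ± SD). The difference was -1.93 ± 0.36 (adjusted p = 0.0021), and without the rescaling of 2 muscle arrays it was -1.07 and not called (0.15, in a range of 0.00028 to 0.15).

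Genes next to the pathway went both ways. Of 8 measured genes of cholesterol efflux, oxysterols and bile acid precursors 3 rose and 1 fell, with a median of 1.17, where 8.66% of all genes were called higher and 9.09% lower. Summed macrophage markers were also higher in the tumours as a group, with 5 of 8 markers called higher, and the part of these cells was not tested. Ch25h, which makes 25-hydroxycholesterol, had 412, 435 and 723 in tumours (lowest, median and highest) and 80, 154 and 119 in muscles 1 to 3. The groups did not overlap, and Ch25h differed by 1.91 ± 0.37 (limma, adjusted p = 0.0027). Abcg1, a cholesterol exporter, differed by 2.04 ± 0.58, with 48 on muscle 3 and 438 to 589 on the other muscles. Without muscle 3 it was 1.03 and not called (adjusted p = 0.17), nor was it without tumour 5 (0.053) or without tumours 1 and 4 (0.054), in a range of 0.0014 to 0.17. Cyp7b1, an oxysterol hydroxylase, differed by 1.54 ± 0.47 (limma, adjusted p = 0.037), with dim signals of 58, 49 and 9.84 in muscles 1 to 3. It was called under 12 of 20 alternatives, in a range of 0.017 to 0.26. Leaving out tumour 3, 5 or 6 or muscle 2 or 3 ended the call, at 0.059 to 0.26. So did the mean of its probe sets (1.05, limma, adjusted p = 0.11) and the use of tumours 1 to 3 only, with or without the block (0.12). Cyp27a1, the mitochondrial sterol 27-hydroxylase, averaged 337 ± 147 over the 6 tumours and 1280 ± 200 over the 3 muscles (mean ± SD), and fell by 1.96 on the log2 scale (limma, adjusted p = 0.003), but was not called without the rescaling (0.14, in a range of 0.00045 to 0.14).

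Of 11 fatty acid synthesis genes 1 rose, 2 fell and 8 did not pass, with a median of -0.03. Among all genes 8.66% were called higher and 9.09% lower. Scd1, stearoyl-CoA desaturase, had 498, 852 and 2048 in tumours and 7373, 9471 and 9668 in muscles 1 to 3. It differed by -3.08 ± 0.43 (limma, adjusted p = 0.00029), with every tumour below every muscle. Me1, malic enzyme, differed by -2.11 ± 0.39 (adjusted p = 0.0021). With the mean of each gene's probe sets the differences were -1.74 for Scd1 and -3.34 for Me1, both called, so their order turned. Me1 did not pass without the rescaling (0.082, in a range of 0.0004 to 0.082). Both are abundant in fat cells, and adipocyte markers were lower in the tumours as a group, with 4 of 5 measured markers called lower. The part of fat cells was not tested. Fads1, the delta-5 desaturase, differed by 1.10 ± 0.35 (adjusted p = 0.044), a call lost without any 1 of the muscles (0.12 to 0.16), without tumour 3, 5 or 6 (0.062 to 0.077) and with median centring (0.16), in a range of 0.0073 to 0.16. Of 5 prenyl transfer and dolichol genes 0 were called in either direction (limma), and 0 passed an unadjusted p under 0.05.

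**Figure D4:**
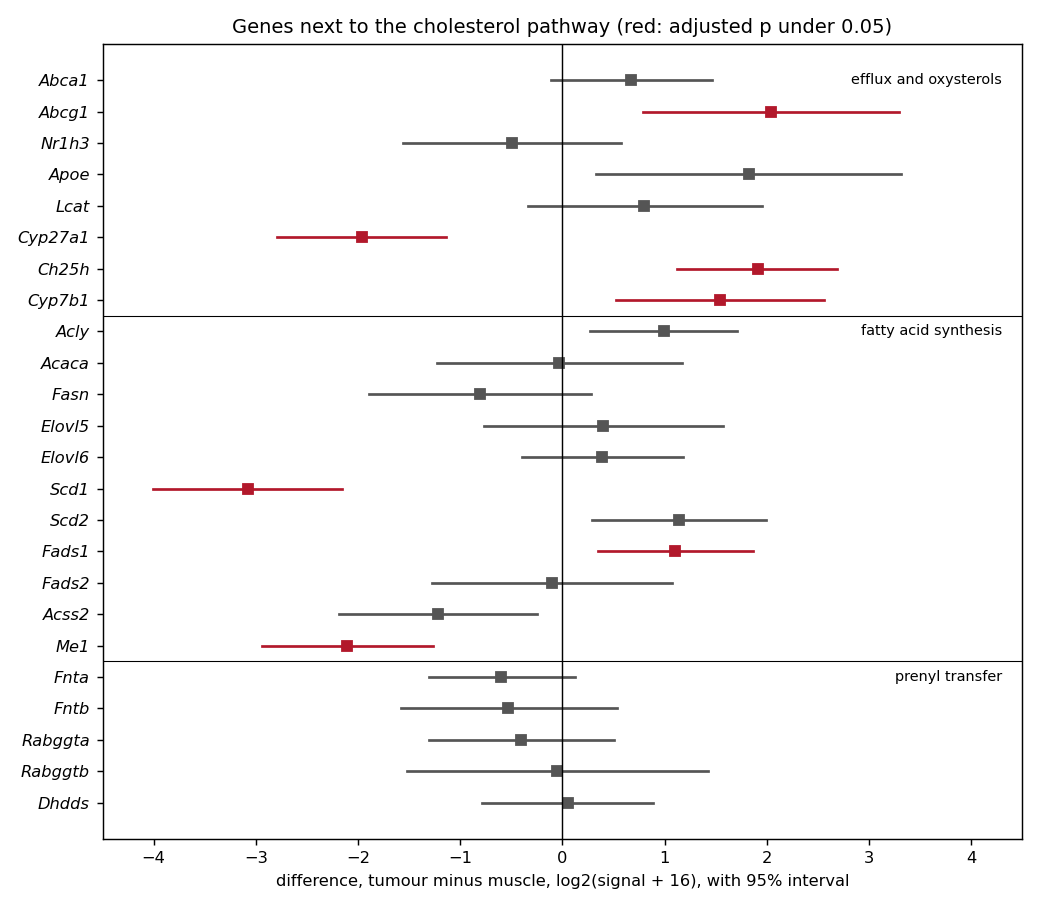
Difference between tumours (n = 6) and muscles (n = 3) for genes of efflux and oxysterols, fatty acid synthesis and prenyl transfer, as tumour minus muscle on the scale of log2(signal + 16), with 95% intervals from limma. Red marks an adjusted p under 0.05, and Scd1, by its brightest probe set, lies farthest from 0, at -3.08.

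The genes whose order over the 6 tumours was most like the mean log2 profile of the 7 members were found among 6190 genes of above-median brightness. Pearson's r was 0.98 for Nupr1 (Spearman's rho 1.00), 0.98 for 3110040N11Rik (0.94), 0.95 for Cdv3 (0.94), 0.95 for Uso1 (0.94) and 0.94 for Ddx19b (0.71). Without tumours 2 and 3, the farthest from the median of the profile, r was 0.99, 0.71, 0.73, 0.83 and 0.33 for the same 5 genes. With 6 tumours and so many genes such values are a description only. The profile took Hmgcs1 by its brightest probe set, whose order of the tumours its dimmer probe sets did not share. Without Hmgcs1 the mean of tumour 1 moved from 9.42 to 8.76, below those of tumours 4 and 5, at 9.21 and 8.87. Likeness to the profile without Hmgcs1 was not computed. Dhcr7 had an r of 0.87 over the 6 tumours and 0.23 without tumours 2 and 3, and Srebf2 had 0.12 over the 6 and 0.90 without them. Among the members, which form part of the profile, r over the 6 tumours was 0.95 for Fdft1, 0.92 for Idi1 and 0.71 for Sqle. It was 0.56 for Cyp51, 0.39 for Hmgcs1, 0.09 for Fdps and -0.06 for Lss. Without tumours 2 and 3 r was 0.11 for Fdft1, 0.59 for Idi1, 0.16 for Hmgcs1, 0.96 for Fdps and 0.83 for Lss. For Sqle and Cyp51 it turned negative, at -0.78 and -0.57. The likeness of each member to the profile therefore depended on those 2 tumours, and the members shared no single order.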

How the data were processed

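The authors deposited linear signal intensities computed with MAS5 for every probe set on every array, per the submitters' processing notes, which give no version. Scaling target and filters were not given in the sources used here. The 2% trimmed mean was 500.2 on 7 arrays, 294.3 on muscle 1 and 140.9 on muscle 3, so all arrays were brought to the median of these means. Of 22690 probe sets 64 controls were left out, 20380 had 1 symbol, 691 several and 1555 none. Identifiers of 20351 were found in the RefSeq table of GRCm38.p6. A gene was represented by its probe set with the highest mean log2(signal + 16), a choice in which 6 of 9 arrays are tumours, and member probe sets were also tested singly. Differences were fitted with limma 3.58.1 in R 4.3.3 (lmFit, eBayes with trend, no covariates) on all 9 arrays, adjusted by Benjamini-Hochberg over all genes or probe sets and called under 0.05. The fit was tested on simulated data. Figures and summaries used Python 3.11.15, pandas 2.3.3 and matplotlib 3.10.9. The number of arrays limits the precision. Members, lists and alternatives were chosen with earlier results of these data known. Genes named were the members, the called genes of the lists (up to 4 per direction for the lists next to the pathway), fixed regulators, and the 5 nearest profiles. Alternatives covered normalization, offset, brightness filter, probe sets, moderation, test, pairing and samples.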

Additional observations from a re-analysis of the deposited data

Results flagged for a closer look

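In 1 of 25 sets of tumour values tested, the highest sample stood farther from the rest than Dixon's 95% critical value for 6 samples allows. For the Cyp51 probe set 1422533_at, tumour 2 had a signal of 536 and the other tumours 164 to 243, and the gap was 0.675 of the whole range on the log2 scale. Chance flags about 1 in 20 such sets.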

How the results depend on the processing

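The number of members called higher, 1 by gene and 1 by probe set, became 3 and 3 without rescaling (Sqle, Lss and Cyp51), 2 and 2 with a weight per group or without tumours 1 and 4 (Sqle and Cyp51), and 0 and 0 with the exact rank-sum test, whose smallest p of 0.024 could not pass the adjustment (smallest adjusted p of 0.11 over genes and 0.12 over probe sets). Leaving out 1 array gave 1 to 2 members higher and 0 to 1 lower, by gene, and 1 to 2 higher and 0 to 3 lower by probe set; Cyp51 was added as higher without tumour 1, and Fdft1 (with Hmgcs1 by probe set) as lower without tumour 2. The number called lower, 0 and 0, became 1 gene with the mean of probe sets (Fdft1), 1 probe set with quantile normalization or median centring (Fdft1), and 2 probe sets with a weight per group. The other pathway genes called higher, 1, became 10 without rescaling, 3 with a weight per group or without tumours 1 and 4, 2 with median centring, above-median brightness or the mean of probe sets, and 0 with the rank-sum test; those called lower, 2, became 0 without rescaling and 0 with the rank-sum test. Leaving out 1 array gave 1 to 2 in each direction, with Srebf2 added without tumour 2 and Insig2 lost without muscle 2 or 3. The labels do not say whether the same number on a tumour and a muscle pairs them, and the main fit did not pair them. The deviations of pairs 1 to 3 correlated at 0.23, 0.18 and -0.02, and those of unlike numbers at -0.21 to 0.07. Correlations from so few arrays cannot decide whether samples were paired. With a replicate block on tumours 1 to 3 and the muscles 0 members were called higher, by gene and by probe set. The same held without the block on those arrays, with Sqle at 1.57 in both (limma, adjusted p 0.06 and 0.077). Over all genes the block gave 641 called higher and 826 lower, against 454 and 635 without it on the same arrays. Without rescaling all genes were called higher 2373 and lower 369 times, against 1073 and 1127, and the median difference moved to 0.79. Differences that were not called changed sign for Hmgcs1 (0.67 without rescaling, 0.27 on tumours 1 to 3 with and without the block, and -0.51 to 0.05 when 1 array was left out, with 0.05 without tumour 4), for Idi1 (-0.03 with quantile normalization, -0.02 with median centring, -0.27 with the mean of probe sets, -0.02 without tumours 1 and 4, and -0.09 to 0.26 when 1 array was left out, below 0 without tumour 2, tumour 4 or muscle 1), for Srebf1 (0.10 without rescaling) and for Dhcr7 (0.00 to 0.38 when 1 array was left out, just below 0 without tumour 2). The cause of these changes was not tested, and where arrays were left out the fit also had fewer of them. Dim probe sets limit Fdps and the minor probe sets of Lss and Cyp51.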
